A study of Mus musculus with 4 samples.

Results

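A group of 10 genes of the imprinted growth network were followed in mouse otocysts labelled as double mutant for the T-box factors Tbx2 and Tbx3: Igf2, H19, Igf2r, Grb10, Dlk1, Meg3, Plagl1, Peg3, Ndn and Mest. They were chosen by name, as the 10 genes of this set among 31791 gene names on the array, and every non-control probe that carried one of the names was read. That gave 20 probes, of which 19, covering all 10 genes, were well above background on at least 3 of the 4 arrays in 1 genotype. RNA came from otocysts, the epithelial vesicles that form the inner ear, dissected from NMRI embryos at E10.5. The mutants (Tbx2/3cDKO) carried Pax2-cre and were Tbx2(fl/fl) and Tbx3(fl/fl), so recombination is limited to cells with a history of Pax2-cre activity. The controls were Tbx2(fl/?);Tbx3(fl/?), a label that names no cre and does not say how many floxed copies each embryo carried. Each of 4 two-colour arrays held 1 mutant and 1 control RNA, both female on replicates 1 and 2 and both male on replicates 3 and 4, with the dyes swapped within each sex. No label says whether the samples were single embryos or pooled ones. The p-values therefore reflect the variation among the samples at hand, part of which may be technical.

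An imprinted gene is expressed mainly from 1 parental allele, under control of a nearby region whose DNA methylation was set differently in egg and sperm. Several imprinted genes act on fetal growth, and genes expressed from the paternal allele often promote it while genes expressed from the maternal allele often restrain it. Many of them are strongly expressed in embryonic mesenchyme and progenitor cells and decline after birth. Here Igf2, Dlk1, Plagl1, Peg3, Ndn and Mest were counted as paternally expressed, and H19, Igf2r, Grb10 and Meg3 as maternally expressed. The arrays measured total RNA of both alleles together, so allele use itself was not measured.

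The data show 1 large and 1 small change among the 10 genes. Plagl1 rose 2.24-fold in the mutant otocysts by its brightest probe and Dlk1 rose 1.22-fold, and none of the 10 passed the test for a fall. A second Plagl1 probe of nearly the same sequence gave the same size, while the other two gave 1.14-fold and 1.21-fold. The other 8 genes, Igf2 and H19 among them, had mean log2 ratios between -0.27 and 0.19 and did not pass. A gene was called by limma at a Benjamini-Hochberg adjusted p under 0.05 over all 23186 probes kept, using its brightest kept probe. With that rule 12.4% of all kept probes were higher and 9.69% were lower in the mutant, so 2 higher and 0 lower of 10 genes was near the background of the array and was no result about the set as a whole. At an unadjusted p under 0.05, 2 of the 10 genes (Peg3 and Ndn) were lower, beside 15.7% of all kept probes, and 3 were higher (Plagl1, Dlk1 and Meg3), beside 18.1%. With a sex term in the fit, Peg3 and Ndn passed as lower and Meg3 as higher. That term also raised the calls over all kept probes, from 2872 to 4050 higher and from 2247 to 3345 lower. A called rise of at least 2-fold, which Plagl1 showed, was reached by 0.932% of all kept probes, and 99.43% of kept probes had a smaller log2 ratio than Plagl1. The median log2 ratio of the 10 genes was 0.02 and that of all kept probes was -0.00041.

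**Figure D1:**
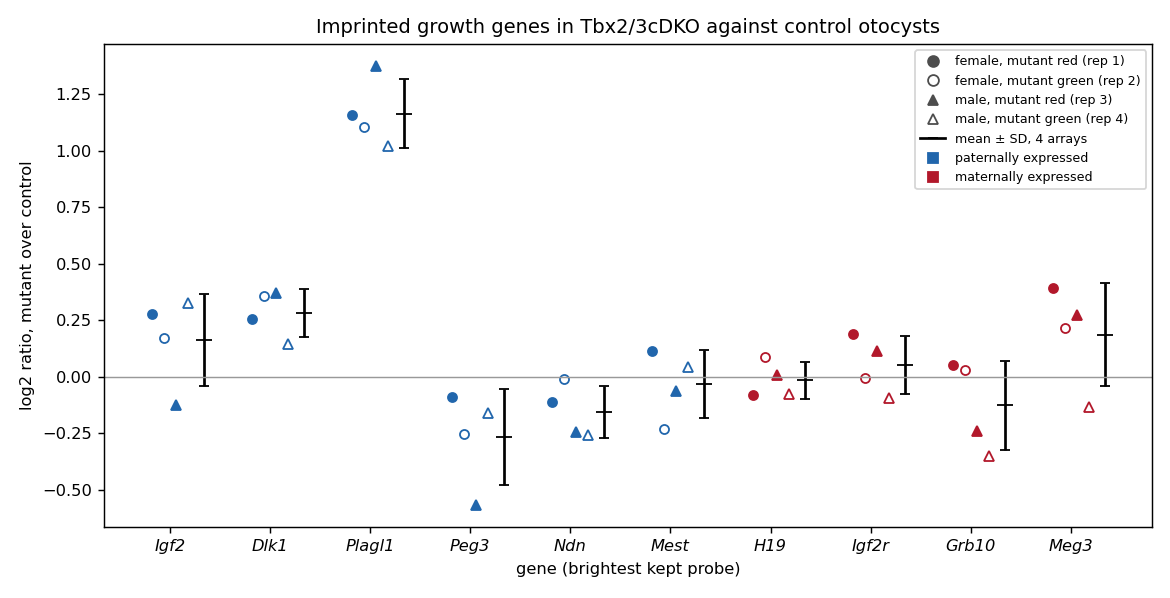
Each point is the log2 ratio of mutant over control on 1 of the 4 arrays for the brightest kept probe of each gene, and the black bars give the mean ± SD. Plagl1 lies between 1.02 and 1.38 on every array, Dlk1 between 0.14 and 0.37, and all points of the other 8 genes lie between -0.57 and 0.39.

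Some facts of the whole data set bear on these values. Between 58.4% and 63.2% of spots per array were well above background, no member spot was saturated or non-uniform, and Pearson's r between arrays across probes was 0.643 to 0.849. The targeted Tbx3 had log2 ratios of -3.38, -3.48, -3.61 and -3.25 on replicates 1 to 4 (adjusted p = 3.26e-06, limma). The targeted Tbx2 had log2 ratios of 0.15, 0.23, 0.14 and -0.27 (adjusted p = 0.656, limma), and the sources used here do not say whether its probe lies in the floxed stretch. Markers of other cells moved as well. All 15 of 15 erythroid, 14 of 14 endothelial, 15 of 20 periotic mesenchyme, 8 of 12 macrophage and 12 of 14 neuroblast and neuron markers tested were higher in the mutant, while 15 of 20 otic epithelial markers were lower. Listed markers not well above background on enough arrays to be tested included Osr2, Tcf21, Fcgr1 and Neurod4. In such whole-tissue RNA, more cells of a type and more RNA per cell cannot be told apart, and the part of these shifts in the values of the imprinted genes was not tested.

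Plagl1 encodes a zinc finger transcription factor, also known as Zac1, that restrains the cell cycle and has been placed upstream of a network of other imprinted genes. It was the member that moved most. Its brightest probe (A_52_P532456, mm9 chr10:12851280-12851339, plus strand) gave log2 ratios of 1.16, 1.10, 1.38 and 1.02 on replicates 1 to 4. The channel levels on the log2 scale were 15.1 to 15.5 in the 4 mutant RNAs and 14.0 to 14.5 in the 4 control RNAs. Every mutant level was above every control level, which held for this or the opposite direction in 22.5% of all kept probes. The mean log2 ratio was 1.16 ± 0.15 (SD, n = 4 arrays), with a 95% confidence interval of 1.03 to 1.304 from the fit and an adjusted p of 3.96e-05 (limma). Female arrays had a mean log2 ratio of 1.13 and male arrays 1.20, and the difference of -0.07 had an adjusted p of 0.797 (limma).

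The 4 Plagl1 probes did not all report a change of this size. A_55_P1961968 gave 1.14, 1.06, 1.37 and 1.02, with a mean of 1.15 (adjusted p = 4.38e-05, limma). A_55_P2153251 gave 0.25, 0.20, 0.40 and 0.26, with a mean of 0.28 (adjusted p = 0.0106, limma). A_55_P1961965 gave 0.30, 0.16, 0.30 and -0.01, with a mean of 0.19 that missed the threshold (adjusted p = 0.0507, limma). By the listed mm9 positions, the pair with small ratios lies upstream of the pair with large ratios. The mutant and control levels of A_55_P2153251 did not overlap (8.0 to 8.1 against 7.7 to 7.8 on the log2 scale). Those of A_55_P1961965 did (7.8 to 8.3 against 7.7 to 8.0). The pair with small ratios was thus far dimmer than the pair with large ratios, whose levels were 13.9 to 15.5. Whether dimness made their ratios smaller was not tested. The ratio of A_55_P2153251 was 0.32 with a smaller offset of 16 in the background correction and 0.41 by the scanner software's own ratios, and both values stayed below the 1.16 of the brightest probe. Over the mean of all 4 probes the log2 ratio of Plagl1 was 0.69, which passed the test. That mean counts the pair with large ratios as separate probes although their sequences are nearly the same, so it is no independent check.

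The probe sequences are shown because they decide how many separate measurements of Plagl1 there were. The first 30 of 60 bases are given 5′ to 3′ as the files list them, and capitals mark the longest run that 2 of the probes share.
A_52_P532456: tgcccagtatatATCTCCTAACCTTTGATG
A_55_P1961968: ATCTCCTAACCTTTGATGACTCTGTActtt
A_55_P2153251: attttcacagctggctccaacactgctatc
A_55_P1961965: actgccagtgccacagccactaccacagcc
The probes with large ratios share a run of 26 identical bases, and when aligned on it 46 of 48 overlapping bases are the same, although the files list their starts 448 bases apart. Their matching values are therefore not independent measurements, and the listed position or gene assignment of one of them is in doubt. The probes with small ratios share no run longer than 6 bases with each other or with the others.

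**Figure D2:**
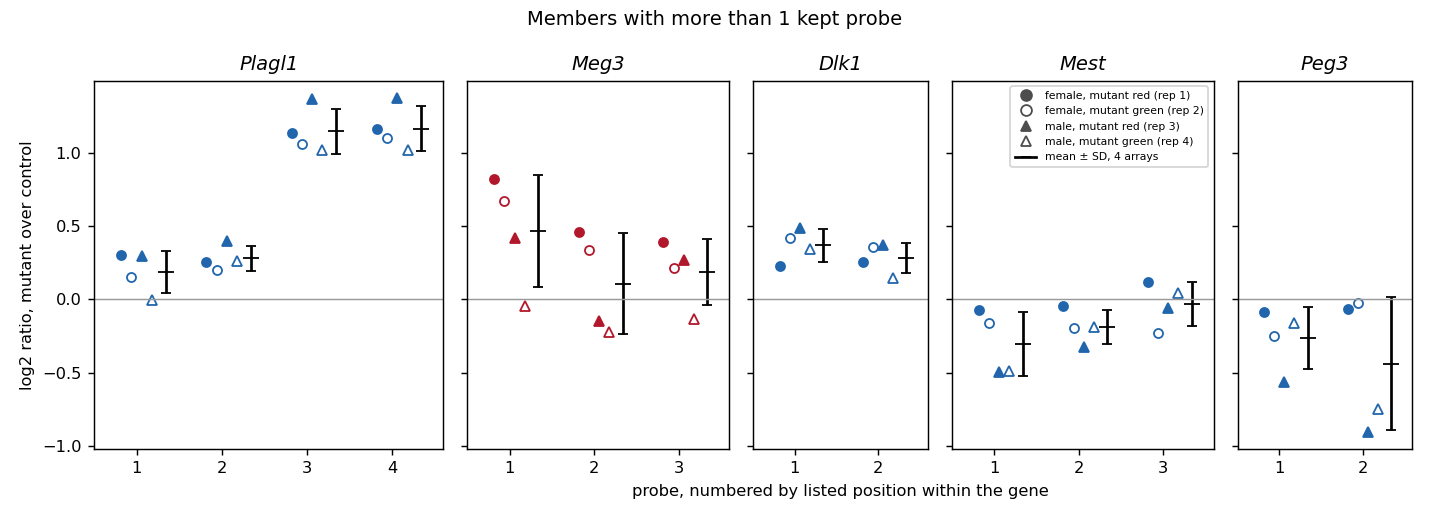
Log2 ratios of mutant over control per array for the genes with more than 1 kept probe, with mean ± SD over 4 arrays (blue, paternally expressed; red, maternally expressed). Probes are in order of listed position within each panel. The 4 Plagl1 probes fall into a pair near 0.2 to 0.3 and a pair near 1.15, and the second Peg3 probe ranges from -0.91 to -0.03 between arrays.

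Dlk1 encodes a transmembrane protein with EGF-like repeats, related to Notch ligands, that keeps precursor cells such as preadipocytes undifferentiated. Its brightest probe (A_66_P117477, mm9 chr12:110698721-110698781) gave log2 ratios of 0.26, 0.36, 0.37 and 0.14. Levels were 12.24 to 12.36 in the mutant RNAs and 11.93 to 12.18 in the control RNAs on the log2 scale, and the groups did not overlap. The mean of 0.28 ± 0.10 (SD, n = 4 arrays) passed the test (adjusted p = 0.0149, limma). A second probe (A_55_P2105371) gave 0.22, 0.42, 0.48 and 0.34, with a mean of 0.37 (adjusted p = 0.0058, limma), and its longest run shared with the first was 7 bases. Dlk1 was higher on 4 of 4 arrays with both probes. Without replicate 3 the brightest probe had a log2 ratio of 0.25 and no longer passed (adjusted p = 0.0907, limma).

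Meg3 is the long noncoding RNA transcribed from the maternal chromosome of the same domain, where Dlk1 is transcribed from the paternal one. Its brightest probe (A_51_P455997, mm9 chr12:110809678-110809737) gave 0.39, 0.21, 0.27 and -0.14, with a mean of 0.19 ± 0.23 (SD, n = 4 arrays) that did not pass (adjusted p = 0.113, limma). Mutant levels of 13.36 to 13.54 lay within control levels of 13.01 to 13.56 on the log2 scale. Replicate 4, a male pair, was the only array below 0, and without it the mean was 0.27 and passed (adjusted p = 0.0233, limma). Without replicate 2 it was 0.10 (adjusted p = 0.380, limma), and with a sex term in the fit it passed (adjusted p = 0.0255, limma).

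The other Meg3 probes lie upstream on the same strand and differed from it. The most upstream gave 0.82, 0.67, 0.42 and -0.05, with a mean of 0.46 that passed (adjusted p = 0.0349, limma), although its mutant levels (11.7 to 12.2) and control levels (11.3 to 11.8) overlapped and the scanner software's own ratios gave an adjusted p of 0.0887. A_52_P196568 (mm9 chr12:110799558-110799617) gave 0.46, 0.34, -0.15 and -0.22, with a mean of 0.11 (adjusted p = 0.601, limma). The female arrays were above 0 and the male arrays below 0 with this probe. The sequences of A_52_P196568 and of the brightest probe are given whole because Meg3 is noncoding and these probes differ in behaviour. They share no run longer than 7 bases.
A_52_P196568: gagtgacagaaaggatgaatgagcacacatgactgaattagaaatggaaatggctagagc
A_51_P455997: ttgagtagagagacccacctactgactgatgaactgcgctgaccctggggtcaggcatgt

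The growth factor axis did not pass the test at any of its 4 genes. Igf2 encodes the main insulin-like growth factor of the fetus. Its only probe (A_55_P2118173, mm9 chr7:149839661-149839720, minus strand) gave 0.28, 0.17, -0.13 and 0.33. The mean log2 ratio was 0.16 ± 0.20 (SD, n = 4 arrays; adjusted p = 0.193, limma), with a 95% interval of -0.02 to 0.34. The levels of 8.6 to 9.3 in mutants and 8.3 to 9.0 in controls overlapped, and replicate 3 was the only array below 0. The probe was well above background on every array, but it was the dimmest of the brightest probes used for the members. Whether dimness made its ratios smaller was not tested. Leaving out 1 array moved the log2 ratio to between 0.06 (without replicate 1) and 0.26 (without replicate 3), with no call.

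H19 is a long noncoding RNA transcribed from the maternal chromosome next to Igf2, under a shared imprinting control region. Its brightest probe (A_55_P1961127, mm9 chr7:149761492-149761551, minus strand) gave -0.08, 0.09, 0.01 and -0.08. The mean log2 ratio was -0.02 ± 0.08 (SD, n = 4 arrays; adjusted p = 0.875, limma), with a 95% interval of -0.15 to 0.12. The levels of all 8 RNAs lay between 16.6 and 16.7 on the log2 scale, the least spread between arrays of the 10 genes. These levels follow a normalization that makes the intensity distributions of the arrays alike. How far that step set the small spread of so bright a probe was not tested. A second H19 probe (A_55_P1961125, mm9 chr7:149762417-149762476) was well above background on 1 mutant and 2 control arrays and was not tested. The pair is shown because 1 of them measured H19 and the other hardly rose above background.
A_55_P1961127: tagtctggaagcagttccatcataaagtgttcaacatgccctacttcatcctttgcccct
A_55_P1961125: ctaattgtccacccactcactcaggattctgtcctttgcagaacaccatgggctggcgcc

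Igf2r encodes the receptor that carries Igf2 to lysosomes for degradation. Its probe (A_51_P125467, chromosome 17, minus strand) was printed 10 times on each array, and the SD between these spots was 0.014 to 0.038. The means per array were 0.19, -0.004, 0.12 and -0.10, so the spread between arrays was larger than the spread between spots. On average it was 0.05 ± 0.13 (SD, n = 4 arrays; adjusted p = 0.545, limma), and the levels of 13.2 to 13.3 in mutants and 13.1 to 13.3 in controls overlapped.

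Grb10 encodes an adaptor protein that restrains signalling from the insulin and insulin-like growth factor receptors. It is expressed from the maternal allele in most tissues and from the paternal allele in neurons. Its probe (A_55_P1955457, mm9 chr11:11833165-11833224, minus strand) gave 0.05, 0.03, -0.24 and -0.35. Over the arrays the log2 ratio was -0.13 ± 0.20 (SD, n = 4 arrays; adjusted p = 0.331, limma), with overlapping levels of 9.5 to 9.8 in mutants and 9.6 to 9.9 in controls. Both female arrays were slightly above 0 and both male arrays below it. Leaving out 1 array moved the log2 ratio to between -0.22 (without replicate 2) and -0.03 (without replicate 4), with no call.

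Peg3 and Ndn encode nuclear regulators expressed from the paternal allele, a zinc finger protein and the growth-restraining protein necdin of the MAGE family. Peg3 was below 0 on 4 of 4 arrays with both of its probes but did not pass. Its brightest probe (A_52_P235861, mm9 chr7:6658774-6658833) gave -0.09, -0.25, -0.57 and -0.16, with a mean of -0.27 ± 0.21 (SD, n = 4 arrays; adjusted p = 0.0627, limma). Without replicate 1 the log2 ratio was -0.39 and passed (adjusted p = 0.0133, limma), and without replicate 3 it was -0.15 (adjusted p = 0.300, limma). It also passed with a sex term in the fit (adjusted p = 0.0237, limma). The second probe (A_55_P2163319) gave -0.07, -0.03, -0.91 and -0.75, with a mean of -0.44 (adjusted p = 0.0979, limma). The spread between arrays was wide because both male arrays were far lower than both female arrays. Mutant and control levels of each probe overlapped.

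Ndn (A_52_P451644, mm9 chr7:69493847-69493906) gave -0.11, -0.01, -0.24 and -0.26. Its levels of 12.15 to 12.33 in mutants were all below the 12.34 to 12.53 of controls. Its mean of -0.16 ± 0.12 (SD, n = 4 arrays) did not pass (adjusted p = 0.130, limma), although the levels did not overlap. With a sex term in the fit it passed (adjusted p = 0.0381, limma), and without replicate 4 the log2 ratio was -0.09 (adjusted p = 0.431, limma). Plagl1, Dlk1 and Ndn were the 3 of 10 genes whose levels did not overlap between genotypes, beside 22.5% of all kept probes.

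Mest encodes a membrane-bound protein of the alpha/beta hydrolase family that is abundant in embryonic mesoderm. Its brightest probe (A_51_P124535, mm9 chr6:30698279-30698338), also printed 10 times, gave 0.12, -0.23, -0.06 and 0.04. The mean log2 ratio was -0.03 ± 0.15 (SD, n = 4 arrays; adjusted p = 0.773, limma), and levels of 16.1 to 16.4 in mutants and 16.1 to 16.3 in controls overlapped. The other probes were lower on 4 of 4 arrays. A_55_P2090025 (mm9 chr6:30697385-30697444) had a mean of -0.19 (adjusted p = 0.0759, limma). A_55_P2151868 (mm9 chr6:30692160-30692219), the most upstream, gave -0.07, -0.16, -0.49 and -0.49, with a mean of -0.30 that passed (adjusted p = 0.0492, limma) and levels that did not overlap. By the scanner software's own ratios its adjusted p was 0.081. Counted by probe rather than by gene, 6 of 19 kept probes were higher, beside 12.4% of all kept probes, and 1 was lower, beside 9.69%. The near-identical Plagl1 probes make up 2 of these 6.

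**Figure D3:**
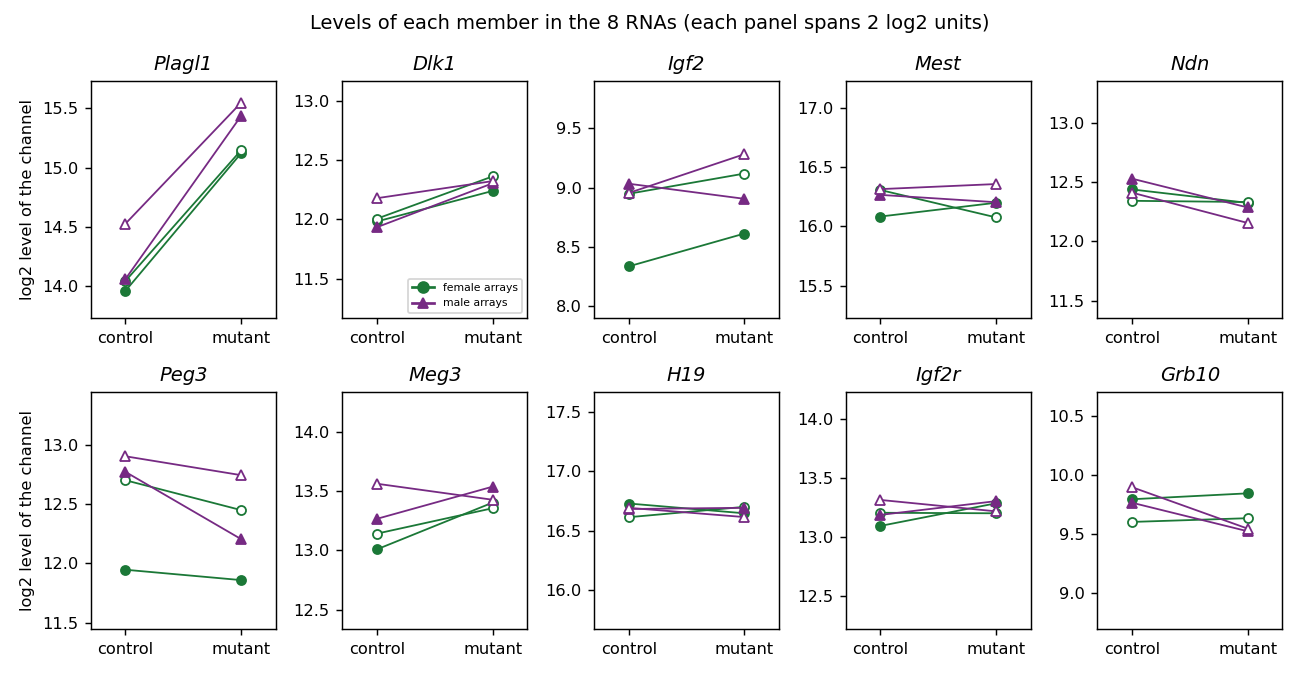
Log2 channel level of each gene's brightest kept probe in the control and the mutant RNA of each array, joined by array (green, female; purple, male; open points, mutant in the green dye). Every panel spans 2 log2 units around its own mean, and levels of different genes cannot be compared. The 4 mutant levels lie above all control levels for Plagl1 and Dlk1 and below them for Ndn, and the other 7 panels overlap.

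Genes expressed from the paternal and the maternal allele were then compared. Of the 6 paternally expressed genes 2 were higher, 0 were lower and 4 were not called, with log2 ratios from -0.27 to 1.16 and a median of 0.06. Of the 4 maternally expressed genes 0 were called in either direction, with log2 ratios from -0.13 to 0.19 and a median of 0.02. The mean of the paternal genes minus the mean of the maternal genes was 0.13, 0.11, 0.09 and 0.35 on replicates 1 to 4, or 0.17 ± 0.12 (SD, n = 4 arrays), above 0 on 4 of 4 arrays. This difference rested on Plagl1. Without it the values were -0.05, -0.08, -0.16 and 0.18, with a mean of -0.03 ± 0.15 and 1 of 4 arrays above 0. With medians in place of means the difference was 0.03 ± 0.15, and with the mean of all kept probes of each gene it was 0.04.

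By the brightest probe of each gene, imprinted genes outside this set showed no shared direction by allele. Of 45 on the array, 35 were tested, with a median log2 ratio of -0.06. Of the 35, 3 were higher, beside 12.4% of all kept probes, and 5 were lower, beside 9.69%. These counts were near the background of the array and were no result about the list as a whole. Among the 17 paternally expressed of these, 1 was higher and 3 were lower, and among the 17 maternally expressed, 2 were higher and 2 were lower. The highest was Nnat, which encodes the membrane protein neuronatin, with log2 ratios of 0.62, 0.59, 0.41 and 0.83 (mean 0.61, adjusted p = 0.000834, limma). Asb4, which encodes a substrate adaptor for ubiquitin ligases, had a mean of 0.38 (adjusted p = 0.00234, limma), but its other kept probe had 0.17 (adjusted p = 0.311, limma). Cobl, an actin nucleator gene next to Grb10, had 0.28 (adjusted p = 0.0492, limma). A further probe passed as lower at the paternally expressed Kcnq1ot1 (-0.25, adjusted p = 0.048, limma) and Snrpn (-0.21, adjusted p = 0.0454, limma). At the maternally expressed Mirg a further probe passed as higher (0.30, adjusted p = 0.0281, limma). The brightest probes of these genes did not pass, and the further probes were picked after their values were seen.

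The lower genes included Ddc, the aromatic amino acid decarboxylase gene that also lies next to Grb10. Its brightest probe gave -0.64, -0.48, -0.50 and -0.30 (mean -0.48, adjusted p = 0.00139, limma), but its other kept probe had a mean of 0.02. Slc22a18, a transporter gene, had a mean of -0.35 (adjusted p = 0.00309, limma). Peg12 had a mean of -0.27 (adjusted p = 0.00929, limma). Phlda2, a restrainer of placental growth, had a mean of -0.32 (adjusted p = 0.0134, limma). Mkrn3, the 5th, had a mean of -0.23 (adjusted p = 0.0238, limma) and was named because it completed the count. The other kept probe of Mkrn3 had -0.17 and did not pass (adjusted p = 0.0934, limma). Cobl lost its call under 7 of 18 other settings, without replicates 2 and 3 among them, and Peg12, Phlda2 and Mkrn3 lost theirs without replicate 1, which left 2 lower genes. Mkrn3 also lost its call without replicates 2 and 3. By the scanner software's own ratios Phlda2 was at -0.51. Gnas, whose imprint depends on the isoform, was counted by its brightest probe (0.09, adjusted p = 0.328, limma), while other kept probes of it gave -1.02 (adjusted p = 0.000272, limma) and 0.33 (adjusted p = 0.00495, limma). These Gnas probes were chosen after their values were seen. Cdkn1c, a cell cycle inhibitor gene near Phlda2 that was chosen after its value was seen, had a mean of -0.06 (adjusted p = 0.513, limma).

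**Figure D4:**
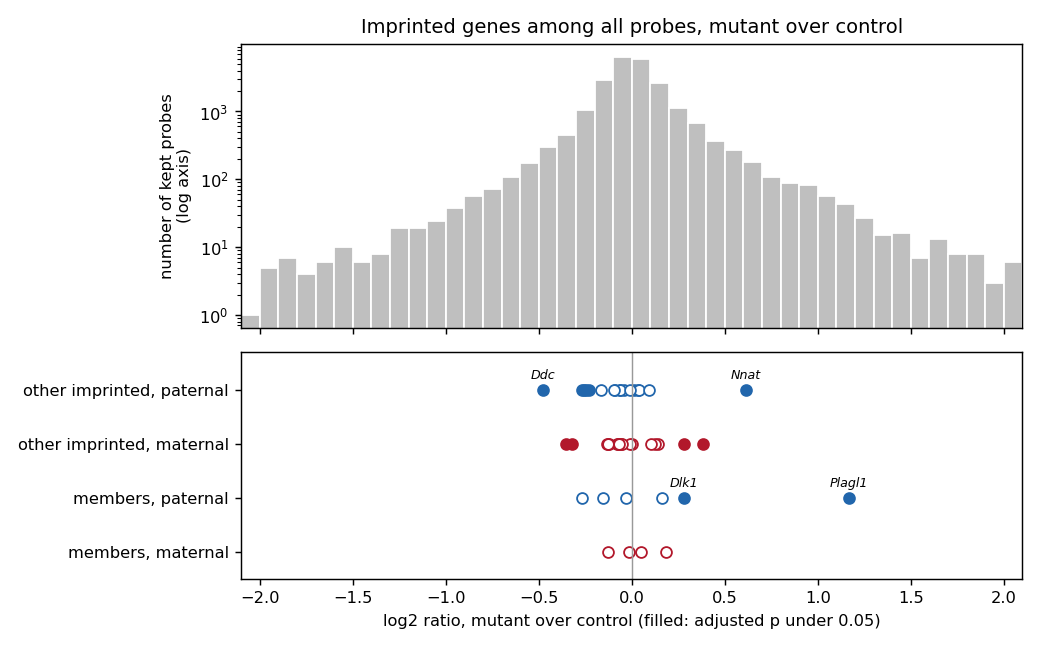
The upper panel counts all kept probes by log2 ratio of mutant over control, in steps of 0.1 on a log axis that leaves out probes beyond the plotted range. The lower panel places the brightest kept probes of the 10 genes and of the 34 other tested imprinted genes with a single assigned parental allele, filled where the limma adjusted p was under 0.05. By its brightest probe Plagl1 lies at 1.16, apart from all other imprinted genes shown, of which Nnat at 0.61 is the next. The Plagl1 probes with small ratios (0.28 and 0.19) are not shown.

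Other genes of the Igf pathway changed in both directions. By the brightest probe, 6 of 20 tested genes were higher, beside 12.4% of all kept probes, 3 were lower, beside 9.69%, and 11 did not pass, with a median log2 ratio of 0.10. The receptor Igf1r was higher (mean 0.39, adjusted p = 0.0206, limma), with 0.71, 0.44 and 0.44 on replicates 1 to 3 and -0.03 on replicate 4. Irs1, the adaptor that relays signals from that receptor, had a mean of 0.54 (adjusted p = 0.000736, limma), but its other kept probe had 0.17 (adjusted p = 0.0826, limma). Igf2bp3, which encodes a protein that binds Igf2 mRNA, had a mean of 0.24 (adjusted p = 0.0251, limma). Irs4, an adaptor related to Irs1, did not pass by its brightest probe (-0.11, adjusted p = 0.210, limma). Another Irs4 probe, singled out after its values were seen, was well above background on 4 control arrays and 0 mutant arrays. It was therefore kept through the control group alone. By a bound it was at least 2-fold lower in mutants, and the bound itself was not tested. That bound sets the mean control level against, on each array, the higher of the probe's own mutant signal and the lowest mutant signal well above background.

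The secreted binding proteins and the enzymes that cleave them went in both directions. Igfbp3 was higher, with a mean of 0.45 (adjusted p = 0.0015, limma). Igfbp5 was lower, with a mean of -0.42 (adjusted p = 0.0024, limma). The protease gene Pappa was lower (-0.41, adjusted p = 0.00222, limma) and its relative Pappa2 was higher (0.40, adjusted p = 0.00153, limma). The stanniocalcins, which inhibit these proteases, split as well. Stc1 was higher at 0.71 (adjusted p = 0.00027, limma) and Stc2 was lower at -0.41 (adjusted p = 0.00146, limma), or -0.97 by the scanner software's own ratios. Igf1r and Igf2bp3 fell outside the naming rule of 4 genes a direction and were named after their values were seen, to complete the count.

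The 13 tested genes that set or maintain DNA methylation at imprinted loci had a median log2 ratio of 0.04. Of these 1 was higher, beside 12.4% of all kept probes, and 0 were lower, beside 9.69%. Dnmt3a, the de novo DNA methyltransferase gene, gave 0.35, 0.41, 0.43 and 0.17, with a mean of 0.34 (adjusted p = 0.00739, limma). With a sex term in the fit the count was 3 higher and 1 lower, beside 4050 higher and 3345 lower of all 23186 kept probes.

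The difference between sexes was tested as an interaction. No member passed at an adjusted p under 0.05 (limma), beside 0.0173% of all kept probes. At an unadjusted p under 0.05, 2 of the 10 genes (Grb10 and Meg3) and 6 of the 19 kept member probes differed, beside 16.6% of all kept probes. All 6 of these probes, which read Grb10, Meg3, Peg3 and Mest, had a higher log2 ratio in females than in males. The largest difference was at the second Peg3 probe, with means of -0.05 in females and -0.83 in males (difference 0.78, adjusted p = 0.0669, limma). Among the brightest probes, 8 of 10 genes had the higher ratio in females, beside 51.1% of all kept probes. At Mest the brightest probe had a difference of -0.05. Differences of such size were not particular to the members. Among other genes Kcnq1ot1 had 0.80 and Irs2 0.70, while Sox9 had -0.50, all picked after their values were seen. Each sex was represented by 2 arrays, and the cause of these differences was not tested.

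Igf2 and H19 share an imprinting control region, and the genes with levels most like theirs were looked up over the 8 channel levels, which share arrays in pairs. For Igf2 these were Gm13202 (Pearson's r = 0.981), Cyb5r1 (0.973), Ankhd1 (0.969), Arpc2 (0.957) and 9930021J03Rik (0.954). For H19 they were AW552889 (0.922), Klk1b3 (0.905), Nhlrc3 (0.884), LOC675091 (0.869) and Gm7516 (0.854). Neither was among the genes most like the other, no other member was in these lists, and none of the 10 listed genes had an adjusted p under 0.05 between genotypes (limma).

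Promoter windows were read because Tbx2 and Tbx3 bind DNA through the T-box element. The letters GGTGTGA, on either strand (TCACACC), were searched in RefSeq windows from 250 bases before to 50 bases after each gene start (GRCm38.p6). They occurred in 1307 of 32851 windows (3.98%). The table held 16 windows for 9 members, and 2 windows held the letters, 1 of Meg3 and 1 of Peg3. The Plagl1 window held none. It held 26 CpG dinucleotides, where the median window held 7, and 16.9% of all windows held at least as many. Its 250 bases upstream of the start are shown because Plagl1 changed most and its imprint is carried by CpG methylation (GRCm38.p6 chr10:13090582-13090831, plus strand), with the 19 CpG sites in capitals.
Plagl1 upstream: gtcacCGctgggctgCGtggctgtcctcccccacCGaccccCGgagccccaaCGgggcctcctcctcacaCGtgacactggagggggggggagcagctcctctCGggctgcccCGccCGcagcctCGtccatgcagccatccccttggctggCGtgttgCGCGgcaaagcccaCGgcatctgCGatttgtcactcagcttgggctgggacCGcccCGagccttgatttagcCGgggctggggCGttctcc

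Levels of the cell type markers are set beside these results because several imprinted genes are strong in mesenchyme and blood vessels. The summed linear intensity of the tested periotic mesenchyme markers was 179000 to 187000 in mutants and 145000 to 163000 in controls, with a median log2 ratio of 0.41. That of the endothelial markers was 36800 to 39400 in mutants and 24800 to 27800 in controls (median 0.66). The erythroid markers summed to 1350000 to 1470000 in mutants and 461000 to 707000 in controls (median 1.13). The macrophage markers summed to 7360 to 9830 in mutants and 6070 to 6690 in controls (median 0.40). The neuroblast and neuron markers summed to 27500 to 33300 in mutants and 17500 to 18700 in controls (median 1.07). The otic epithelial markers summed to 138000 to 156000 in mutants and 256000 to 279000 in controls (median -0.66). All these sums separated the genotypes. By its brightest probe the log2 ratio of Plagl1 (1.16) was above the median of each list. Its mean over all kept probes (0.69) was below the erythroid and the neuron medians. Its probes with small ratios (0.28 and 0.19) were below the median of every list that rose. Dlk1 was below the median of every list that rose by each of its probes (0.28 and 0.37). The log2 ratios of H19 (-0.02) and Mest (-0.03), which are abundant in mesenchyme, were below the mesenchyme median. How far these lists moved the imprinted genes was not tested.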

How the data were processed

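Spot intensities and local background intensities of 4 two-colour arrays were deposited from Agilent Feature Extraction, version 10.7.3.1 in the submitters' processing notes. The files also hold log10 ratios of red over green, computed by the scanner software, per the file headers. The deposited series table holds mutant over control ratios, which lay within 0.001 of the scanner ratios for 90.9% to 93.3% of probes. All arrays lay on 1 slide, per the file headers, so no slide could be tested as a block.

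Mean signals were corrected with normexp (offset 50) and normalized by loess within each array in limma 3.58.1 (R 4.3.3). Non-uniform spots (21 to 32 per array) were dropped and spots of a probe averaged. Kept probes were well above background in 1 genotype, and measured, on 3 or more of the 4 arrays, which left 23186 of 39429 probes. Log2 ratios were fitted with terms for genotype (signed by which dye held the mutant) and for dye (residual degrees of freedom 2, prior 4.84), with Benjamini-Hochberg adjustment over all kept probes. SDs are of the turned ratios, dye effect included. Levels are channel values after loess and Aquantile. The number of arrays limits the precision. The steps were tested on simulated data.

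All 10 members were named with every probe. Of other lists, up to 4 called genes a direction were named, smallest adjusted p first, and for Igf2 and H19 the 5 genes most correlated over 8 levels. The members and lists were chosen with earlier results of these data known. Alternatives covered the background, normalization, filter, dye and sex terms, moderation, spots, probe rule, value source, a separate-channel fit and each array left out. Rian and Snurf were not analysed here, and some probe sequences and markers are not reported here. Coordinates of probes are the files' own (mm9), and RefSeq windows are of GRCm38.p6.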

Additional observations from a re-analysis of the deposited data

Results flagged for a closer look

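The log2 ratio of Grb10 (A_55_P1955457) differed in sign between the sexes. Both female arrays were above 0 (mean 0.04) and both male arrays below it (mean -0.30), a difference of 0.336 whose interaction term did not pass over all probes (unadjusted p = 0.00733, adjusted p = 0.164, limma).

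Meg3 behaved alike at 1 of its 3 probes (A_52_P196568), with a female mean of 0.40, a male mean of -0.19 and a difference of 0.585 (unadjusted p = 0.00029, adjusted p = 0.0928, limma). With 2 arrays a sex, the other Meg3 probes had differences of 0.24 and 0.56 in the same direction, but did not change sign in both male arrays.

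The difference between paternally and maternally expressed genes was 0.351 on replicate 4, far from the 0.09 to 0.13 of the other 3 arrays. Chance marks about 1 in 20 groups of values in this way.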

How the results depend on the processing

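Plagl1 kept its call and direction in all 18 settings tried, with log2 ratios of 0.69 to 1.22, and Dlk1 in 17 of 18. The lowest Plagl1 value was the mean of its probes, which counts the near-identical pair as separate probes. Members called lower, 0 as reported, were 1 with median centring, without a dye term, with an intensity trend and in the separate-channel fit, and 2 with a sex term. With each replicate left out, they were 0 to 1, and members called higher were 1 (without replicate 3) to 3. All probes called lower were 1342 (without replicate 3) to 2169. Peg3 passed with median centring (adjusted p = 0.036), without a dye term (0.0397), with a sex term (0.0237) and with an intensity trend (0.0419), all by limma. Ndn passed with a sex term (0.0381) and in the separate-channel fit (0.0412), and Meg3 with a sex term (0.0255). The cause was not tested. With a sex term 8 other imprinted genes were lower in place of 5, while all probes called lower were 3345 in place of 2247.

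The paternal minus maternal difference moved to 0.043 with the mean of the kept probes, 0.035 with medians over genes and -0.026 without Plagl1, an alternative chosen after seeing the data. Signs near 0 turned when 1 array was left out. H19 was -0.057 to 0.025 across these fits, with 0.007 without replicate 1 and 0.025 without replicate 4. Mest was -0.102 to 0.035, with 0.035 without replicate 2 and 0.011 without replicate 3. The ratios are paired by construction, since each array held 1 mutant and 1 control RNA. The number of arrays limits what could be detected, and the second H19 probe was too close to background to be tested.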
